A study of Mus musculus with 18 samples.

Results

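A set of 8 genes best known from germ cells, Sycp3, Psma8, Ddx4, Dazl, Piwil2, Mael, Tcp11 and Trap1a, were followed through every library of the series. They are 8 of 47728 genes in the bulk count files, and they were picked by name because earlier results of these data had placed them high in progenitors made from pluripotent stem cells (PSC). Their levels in PSC-derived against tissue-derived libraries are therefore a description and carry no test. That placing held for 1 of the 6 PSC-derived libraries. In the library labelled iPax7 replicate 1 all 8 genes stood at 9.23 CPM or more (CPM, the read count scaled by TMM-normalised library size), and in the other 5 PSC-derived libraries 7 of the 8 stayed at 1.48 CPM or less, Trap1a being the exception.

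The bulk part of the study held 15 mouse RNA libraries in 5 groups of 3. iPax7 and iPax3 are myogenic progenitors of embryonic stem cell origin, each named for a paired-box factor; Vcam1+ Flk1- cells had been sorted from embryoid bodies and then grown for 3 passages with doxycycline and bFGF. Emb and Fet are myoblasts taken from E10.5 embryos and E14.5 fetuses of the strain written as My5Cre Rosa26YFP, in which the labels name a Cre and a YFP reporter, and Neo is neonatal satellite cells of Pax7-ZsGreen mice at postnatal day 3, from hindlimb muscle. Droplet single-cell libraries covered iPax3 cells and adult satellite cells from the tibialis anterior of Pax7-ZsGreen mice aged 3 months. The labels do not say whether the replicates were separate cultures or animals, so a p-value here speaks only of the variation among these libraries, and that may be technical.

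In mammals most germ cell genes are transcribed only in primordial germ cells, spermatogonia, meiotic cells or oocytes. In somatic tissue they are kept silent, many of them by DNA methylation of a CpG-rich promoter and by a Polycomb complex that contains E2F6, MGA, PCGF6 and L3MBTL2. Pluripotent mouse cells are known to carry transcripts of several of them, while skeletal muscle progenitors have no known use for most.

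Some markers of 4 libraries went against their labels. The library labelled iPax7 replicate 1 held Pax7 at 0.989 CPM, against 111 and 349 CPM in iPax7 replicates 2 and 3, and its 10 myogenic markers summed to 44.1 CPM, against 832 to 1712 CPM in the other 5 PSC-derived libraries. The 3 Neo libraries held Pax7 at 0.495, 4.08 and 5.12 CPM. Their 10 myogenic markers summed to 147, 299 and 185 CPM, against 338 to 1066 CPM in Emb and 560 to 982 CPM in Fet. In Neo replicates 1, 2 and 3, 6, 6 and 8 of the 10 were at 1 CPM or more. All 8 endothelial markers were at 1 CPM or more in Neo and summed to 2097 to 2735 CPM. These sums were 211 to 513 CPM in Fet, 16.5 to 40.8 CPM in Emb and 1.001 to 119 CPM in the PSC-derived libraries. Total counts ran between 516504 (Fet replicate 1) and 56275318 (iPax3 replicate 1), so that 3 counts, the floor used here, were worth 5.19 CPM in the shallowest library and 0.0525 CPM in the deepest.

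Sycp3 and Psma8 act in meiosis. Sycp3, at chr10:88459569-88473236 on the plus strand of GRCm38, encodes the axial and lateral element protein of the synaptonemal complex. It reached 134 CPM (3663 reads) in the library labelled iPax7 replicate 1. The other iPax7 libraries held 0.101 and 0.569 CPM, the iPax3 libraries 0.0350, 0.763 and 0.158 CPM. Sycp3 was at 0 counts in 7 of the 9 tissue libraries, with 0.274 CPM in Fet replicate 2 and 1.28 CPM in Fet replicate 3. Thus 1 library lay 176 times above the next PSC-derived library, iPax3 replicate 2, and 105 times above the highest tissue library, and it supplied 98.6% of all Sycp3 reads of the 6 PSC-derived libraries. An exon of Chpt1 overlaps Sycp3 on the opposite strand, and since the strand setting of the counting was not given, its reads cannot be told apart from those of Sycp3.

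Psma8, on chromosome 18, encodes the testis form of a proteasome core alpha subunit. It stood at 37.6 CPM in the library labelled iPax7 replicate 1, at 0.0338 and 0 CPM in iPax7 replicates 2 and 3, and at 0.0175, 0.0477 and 0 CPM in the iPax3 libraries. All 3 Neo libraries held it, at 9.90, 10.8 and 3.31 CPM, and so did Emb replicate 1 (1.85 CPM) and Fet replicates 2 and 3 (0.944 and 2.50 CPM). Outside that single library, then, Psma8 was higher in 6 of 9 tissue libraries than in any PSC-derived one. Its somatic counterpart Psma7, which supplies the same kind of subunit to all cells, was present in every library at 24.1 to 166 CPM.

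**Figure D1:**
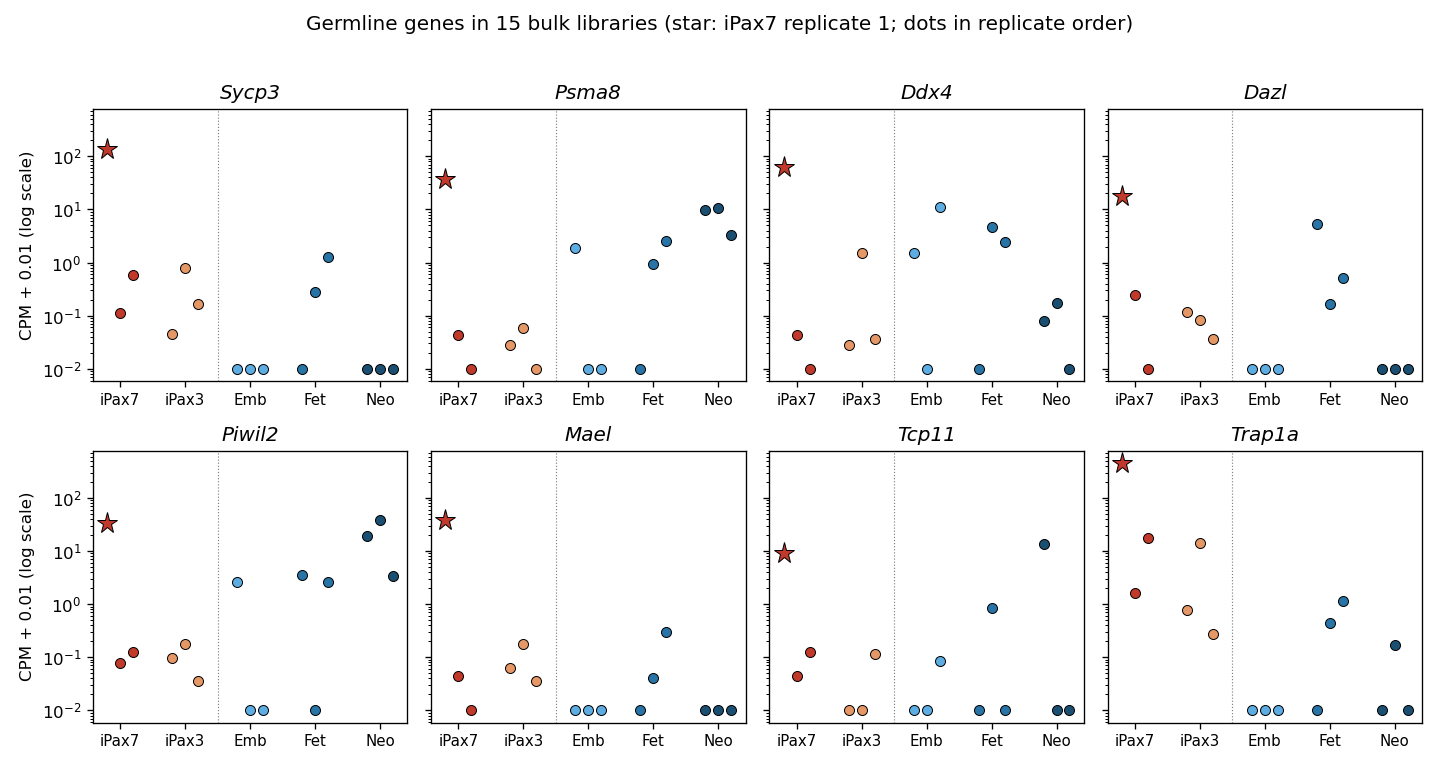
Level of each of the 8 germline genes in the 15 bulk libraries, as CPM plus 0.01 on a log axis, with iPax7 and iPax3 left of the dotted line and Emb, Fet and Neo right of it; each point is 1 library, in replicate order within a group. The star, iPax7 replicate 1, is the top PSC-derived point in all 8 panels, while Neo libraries reach or pass it for Piwil2 (38.2 CPM) and Tcp11 (13.7 CPM).

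Ddx4 and Dazl encode RNA-binding proteins that define germ cells. Ddx4, the vasa helicase of germ granules (chr13:112598333-112652475, minus strand), stood at 63.9 CPM in the library labelled iPax7 replicate 1, at 0.0338 and 0 CPM in replicates 2 and 3 of iPax7, and at 0.0175, 1.48 and 0.0264 CPM in iPax3. The tissue libraries ranged from 0 to 11.0 CPM with a median of 0.163 CPM. The highest were Emb replicate 3 (150 reads, 11.0 CPM) and Fet replicate 2 (155 reads, 4.72 CPM), so Ddx4 reads were not restricted to PSC-derived material. Dazl, a translational regulator needed for germ cell development (chr17:50279395-50293636, minus strand), stood at 17.7 CPM (482 reads) in that library, and the other 5 PSC-derived libraries held 0 to 0.236 CPM, with 7 reads at most. No Dazl read was found in 6 of the 9 tissue libraries. The 5.19 CPM of Fet replicate 1 are 3 reads, which is the floor itself.

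Piwil2 and Mael belong to the piRNA pathway, in which small RNAs guide the silencing of transposons in the germ line. Piwil2, the PIWI protein also called MILI (chr14:70372477-70429383, minus strand), stood at 34.4 CPM in the library labelled iPax7 replicate 1. The other iPax7 libraries held 0.0676 and 0.114 CPM and the iPax3 libraries 0.0875, 0.167 and 0.0264 CPM. Neo held it at 19.5, 38.2 and 3.31 CPM, with 276, 234 and 11 reads, so that Neo replicate 2 lay above every PSC-derived library. As with Psma8, 6 of 9 tissue libraries were above all 5 remaining PSC-derived ones. For Piwil2 these include Fet replicate 1, whose 3.46 CPM are 2 reads, under the floor of 5.19 CPM in that library. In the Neo libraries the endothelial markers were high as well, and whether the Piwil2 and Psma8 reads came from that source was not tested.

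Mael, a component of the germ cell nuage (chr1:166201201-166238747, minus strand), showed the narrowest pattern of the set. It stood at 39.2 CPM (1069 reads) in the library labelled iPax7 replicate 1, and no other library passed 0.285 CPM (Fet replicate 3, 4 reads). In 7 tissue libraries there was no Mael read, and that single library lay 235 times above the next PSC-derived library.

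Tcp11 and Trap1a complete the set. Tcp11, a t-complex gene with a role in sperm function (chr17:28066745-28080639, minus strand), was the lowest member in the library labelled iPax7 replicate 1, at 9.23 CPM. It was at 0 to 0.114 CPM in the other PSC-derived libraries. Neo replicate 1 held 194 reads (13.7 CPM) and Neo replicates 2 and 3 held none, so the Neo libraries did not share it. Fet replicate 2 held 27 reads (0.822 CPM). These 2 tissue libraries lay above all PSC-derived libraries other than iPax7 replicate 1. Part of Tcp11 overlaps other annotated transcripts on the same strand, and its reads may include theirs.

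Trap1a, an X-linked gene first known as the tumour antigen P1A and otherwise found in testis and placenta (chrX:139333683-139338169, plus strand), was the only member with at least 10 reads in each PSC-derived library. It stood at 452 CPM (12334 reads) in the library labelled iPax7 replicate 1, at 1.59 and 17.9 CPM in the other iPax7 libraries, and at 0.753, 13.97 and 0.264 CPM in iPax3. Tissue libraries held 0 to 1.14 CPM, with 6 of the 9 at 0. All 3 iPax7 libraries and iPax3 replicate 2 were thus above every tissue library, while iPax3 replicates 1 and 3 lay within the range of the Fet libraries.

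Between genes, levels were compared per length of merged exons. In the library labelled iPax7 replicate 1 the order by CPM per kilobase of exon (RPKM) was Trap1a (384), Sycp3 (106), Mael (22.6), Ddx4 (21.2), Psma8 (15.1), Piwil2 (6.51), Dazl (4.62) and Tcp11 (2.40). Mael and Ddx4 are neighbours in that order whose values nearly coincide, and with 1 library no spread is available to separate any pair. The 8 genes together took 788 CPM there. Their sum was 0.632 to 18.7 CPM in the remaining PSC-derived libraries, against 0 to 49.3 CPM in tissue, where Emb replicate 2 held not a single read of any of them among 18266914 counts.

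The promoters are shown because the silencing of such genes is known to act there. From RefSeq (GRCm38.p6), 6 of the 8 genes had a window of 250 bases before to 50 bases after the start; Piwil2 and Psma8 are named only. A pair of motifs was searched on both strands, the E-box CACGTG, which MGA with MAX and other MYC-type factors bind, and GCGGGAA, a form of the E2F site; the motifs do not overlap one another. The 250 bases before the start of Sycp3 (chr10:88459337-88459586, plus strand), Ddx4 (chr13:112652311-112652560, minus strand), Mael (chr1:166238745-166238994, minus strand) and Dazl (chr17:50293621-50293870, minus strand) read as follows, 5′ to 3′, with the motifs in capitals.
Sycp3: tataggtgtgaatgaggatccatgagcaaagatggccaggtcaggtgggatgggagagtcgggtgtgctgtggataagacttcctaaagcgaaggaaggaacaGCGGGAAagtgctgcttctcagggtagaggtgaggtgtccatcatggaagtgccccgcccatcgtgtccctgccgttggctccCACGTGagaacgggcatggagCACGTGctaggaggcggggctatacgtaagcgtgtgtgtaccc
Ddx4: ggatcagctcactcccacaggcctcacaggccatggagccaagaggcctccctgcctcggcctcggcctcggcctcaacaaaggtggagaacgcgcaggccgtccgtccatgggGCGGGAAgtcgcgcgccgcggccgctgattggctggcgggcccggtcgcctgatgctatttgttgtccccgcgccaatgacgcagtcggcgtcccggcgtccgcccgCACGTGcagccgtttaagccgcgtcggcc
Mael: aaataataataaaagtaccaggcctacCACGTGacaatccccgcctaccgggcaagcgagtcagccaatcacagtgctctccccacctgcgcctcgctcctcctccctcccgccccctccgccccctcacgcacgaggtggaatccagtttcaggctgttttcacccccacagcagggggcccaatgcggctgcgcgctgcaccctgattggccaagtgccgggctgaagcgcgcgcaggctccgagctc
Dazl: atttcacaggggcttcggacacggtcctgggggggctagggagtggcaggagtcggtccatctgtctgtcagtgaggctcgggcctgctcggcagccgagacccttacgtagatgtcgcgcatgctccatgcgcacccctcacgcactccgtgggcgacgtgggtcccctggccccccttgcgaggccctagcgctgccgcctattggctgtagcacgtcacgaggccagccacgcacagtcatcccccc
Sycp3 carries the E-box at -64 and -43 and the E2F form at -147, counted from the start. Ddx4 has 1 of each, at -29 and -136. Mael has an E-box at -223, and neither motif is in the windows of Dazl, Tcp11 or Trap1a. The E-box occurred in 7.15% of all 32851 promoter windows, the E2F form in 4.60% and both in 0.457%. Of the other germ cell lists described next, 88 genes had a window. The E-box was in 22.9% of their 109 windows, the E2F form in 18.3% and both in 7.34%. By gene, 21 of the 88 carried the E-box, 18 the E2F form and 8 both. Over all 27025 genes with a window these were 2187, 1429 and 165. The ratio of observed to predicted CpG was 0.978 at Ddx4 and 0.795 at Dazl, above 92.8% and 78.7% of all windows, and 0.491 at Trap1a, above 57.5%. A match is a description of these letters, and with 6 genes nothing is drawn from the counts.

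There were 6 lists of other germ cell genes, compiled from general knowledge with the 8 genes left out, which held 103 genes of the count files. The library labelled iPax7 replicate 1 had 67 of the 103 (65.0%) at 1 CPM or more, where each remaining PSC-derived library had 11 to 20 and each tissue library 12 to 31. Over all genes the share at that level was 30.4% in that library, 27.2% to 28.3% in the remaining PSC-derived ones and 21.4% to 31.6% in tissue. So the wider germ cell set stood apart in the same library as the 8 genes, which was known when the lists were made.

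**Figure D2:**
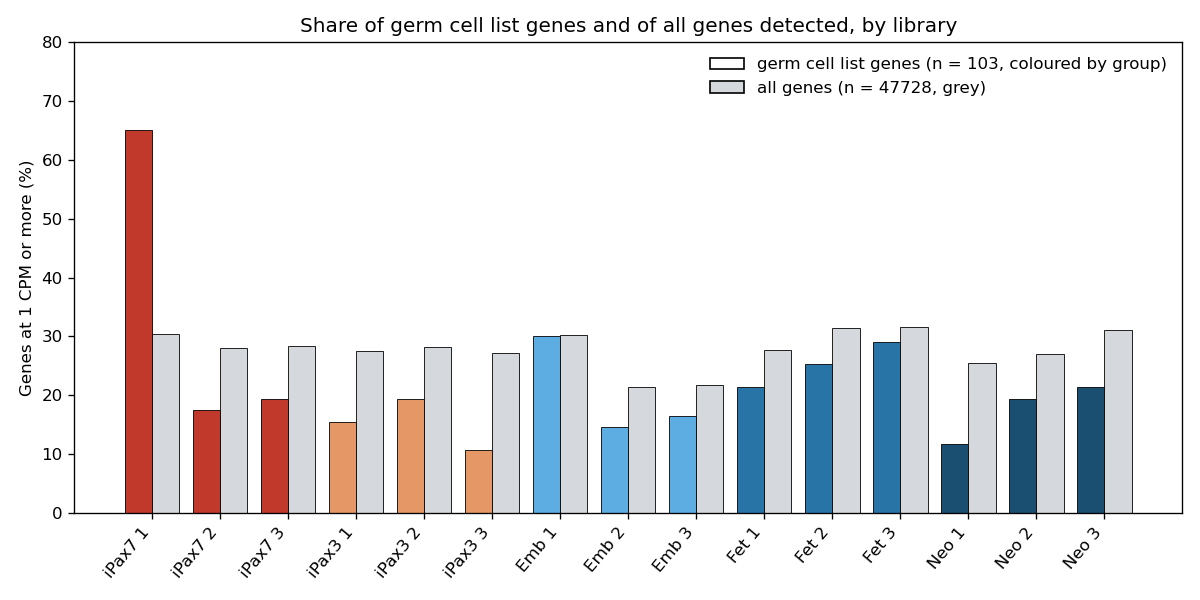
Share of genes at 1 CPM or more in each bulk library, for 103 germ cell list genes (coloured by group) and for all 47728 genes (grey). The iPax7 1 bar reaches 65.0% for the germ cell genes and 30.4% for all genes; in every other library the germ cell share is 30.1% or less.

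By role, each list but that of spermatid genes had most of its members at 1 CPM or more in that library. There 10 of 13 genes of the chromosome axis and cohesin reached it, among them the meiotic cohesins Stag3 (144 CPM) and Smc1b (114 CPM) and the axis protein Hormad1 (44.9 CPM, against at most 0.214 CPM in any other library). Of 18 piRNA pathway genes 14 were, with the tudor protein Rnf17 at 181 CPM, the helicase Mov10l1 at 34.2 CPM and Tdrd12 at 34.7 CPM. Of 16 primordial germ cell factors 10 were, including the meiotic entry factor Stra8 (25.8 CPM), Sohlh2 (31.7 CPM), Prdm14 (18.9 CPM) and Dppa3 (24.4 CPM). Of 18 recombination genes 14 passed that level, with the strand exchange protein Dmc1 at 27.5 CPM, but Spo11, which makes the meiotic breaks, had 0 counts. Only Izumo1 (1.06 CPM) of 12 spermatid genes did, and the protamines Prm1 and Prm2 had 0 counts there. These examples were chosen after their values were seen.

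Of the 14525 genes at 1 CPM or more in that library, 1099 (7.57%) lay at least 2-fold above each of the other 14 libraries. Of the 8 germline genes 6 did so, Piwil2 and Tcp11 being the exceptions, as Neo libraries came near or passed them. Of the 67 germ cell list genes 40 did (59.7%), and of 14 pluripotent cell markers 13. The library was known to stand apart when the genes were chosen, so these counts are a description.

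Among the PSC-derived libraries the sum of 14 pluripotent cell markers was highest in the library where each of the 8 genes was highest. All 14 were at 1 CPM or more in the library labelled iPax7 replicate 1 and summed to 5503 CPM, with Pou5f1 at 550 CPM, Nanog at 511 CPM and Sox2 at 505 CPM. In iPax3 replicate 2, which held the second highest Sycp3 and Ddx4 of the PSC-derived libraries, 12 of 14 were at that level and summed to 81.7 CPM, Pou5f1 being at 8.41 CPM and Lin28a at 43.0 CPM. In the other 4 PSC-derived libraries 2 or 3 of 14 were, with sums of 5.63 to 10.1 CPM. Trap1a, Tcp11 and Dazl departed from this order. The second highest Trap1a, 17.9 CPM, was in iPax7 replicate 3, which had the lowest pluripotent sum, 5.63 CPM. Tcp11 had 0 counts in iPax3 replicate 2. The second highest Dazl, 0.236 CPM (7 reads), was in iPax7 replicate 2. In tissue the sums were 34.1 to 483 CPM, of which Klf2, a gene that endothelial cells also express, made 272 to 471 CPM in Neo. Between 7 and 11 of the 14 were at 0 counts in each Emb and Neo library and in Fet replicate 1, and Pou5f1 was at 0 counts in 7 of 9 tissue libraries. The part of pluripotent cells in the germline values was not tested. In bulk RNA, more cells that express a gene and more RNA of it per cell cannot be told apart.

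**Figure D3:**
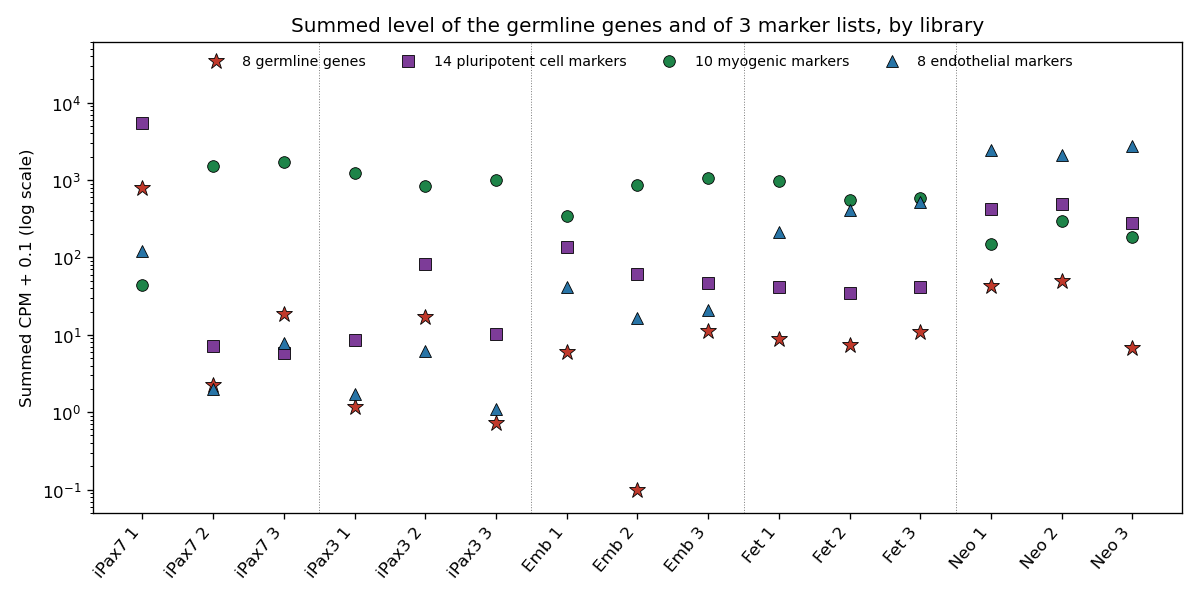
Summed CPM (plus 0.1, log axis) of the 8 germline genes, 14 pluripotent cell markers, 10 myogenic markers and 8 endothelial markers in each bulk library. At iPax7 1 the germline genes (788 CPM) and pluripotent markers (5503 CPM) are at their highest and the myogenic markers (44.1 CPM) at their lowest; the endothelial markers are highest in Neo.

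The genes most like each germline gene over the 15 libraries are given as a description, since the points share 1 far-off library and differ in depth. On the log2 CPM scale Sycp3 was most like Tdgf1 (Pearson r = 0.96), Dppa5a (0.96) and Hsf2bp (0.95), and Trap1a like Lefty2 (0.95), Aspg (0.94) and Hsd17b14 (0.93). Psma8 was most like Cabp1 (0.94), Fam167a (0.94) and Rab37 (0.93), and Piwil2 like Nlrp6, Prdm1 and Cmtm6 (0.87 each). Ddx4 was nearest to Pnma2 (0.96), Clvs2 (0.94) and Crtac1 (0.91), Tcp11 to Gsc (0.96), Cnksr1 (0.87) and Cbln1 (0.82). Among the germline genes themselves Sycp3 with Trap1a (r = 0.90) and Piwil2 with Psma8 (r = 0.85) were the closest pairs, while Piwil2 with Trap1a gave 0.09. Dazl and Mael were too low in most libraries to enter.

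The contrast of iPax7 with iPax3 was not the one the genes were chosen on, but it is not independent of that choice. The library labelled iPax7 replicate 1 gave 92.5% (Trap1a) to 99.6% (Psma8) of the reads of each gene in PSC-derived libraries. Its values therefore set both contrasts, and the results for the 8 genes here are a description. Of the 8 genes 6 passed the low-count filter, which asks for reads in several libraries. Dazl and Mael did not, although the library labelled iPax7 replicate 1 held 482 and 1069 reads of them. Tcp11 had 252 reads there and passed, with 27 reads in Fet replicate 2 and 194 in Neo replicate 1. At a Benjamini-Hochberg threshold over 17571 genes, the quasi-likelihood test of edgeR called 0 of the 6 at an adjusted p under 0.05, although 5 of them had an unadjusted p under 0.05. It called 10 genes of all tested higher (0.0569%) and 3 lower (0.0171%), and 1083 genes had an unadjusted p under 0.05. The fitted log2 fold changes were large but so were their errors. Sycp3 averaged 45.0 ± 77.3 CPM in iPax7 and 0.319 ± 0.390 CPM in iPax3 (SD, n = 3 each), with a log2 fold change of 7.12 ± 2.42 (SE) and an adjusted p of 0.535 in edgeR. Trap1a averaged 157 ± 255 CPM in iPax7 and 4.99 ± 7.77 CPM in iPax3, with 4.97 ± 1.81 and an adjusted p of 0.617. For Psma8, Piwil2, Tcp11 and Ddx4 the log2 fold changes were 8.83, 6.86, 6.31 and 5.38, and edgeR's adjusted p ran between 0.492 and 0.850. With no filter on counts Dazl had a log2 fold change of 6.28 and Mael of 7.17, with adjusted p of 0.653 and 0.572 in edgeR. DESeq2 called 252 of the 17571 genes and 1 of the 6, Psma8 (log2 fold change 9.26, adjusted p = 0.0123). For Sycp3 and Tcp11 DESeq2 gave no p-value, so neither was judged by it.

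Without the library labelled iPax7 replicate 1 the large positive differences were no longer seen, but the errors stayed wide. The log2 fold changes of iPax7 over iPax3 became 0.05 ± 1.83 (SE) for Sycp3, -0.16 ± 2.29 for Psma8 and -0.08 ± 2.12 for Piwil2. They were 0.96 ± 2.39 for Tcp11, -4.38 ± 2.74 for Ddx4 and 0.95 ± 1.86 for Trap1a. Each had an adjusted p of 1 in edgeR, among 18499 genes of which 0.168% were called higher and 0.0487% lower. With such errors a smaller difference in either direction cannot be told from none. The value of Ddx4 then rests on iPax3 replicate 2, which had 62 reads against 1 read or none in each of the 4 other libraries left. The 47 other germ cell genes that were tested had a median log2 fold change of 3.41 with all libraries, where all genes had 0.09, and 48 had -0.06 without that library; none was called either way.

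**Figure D4:**
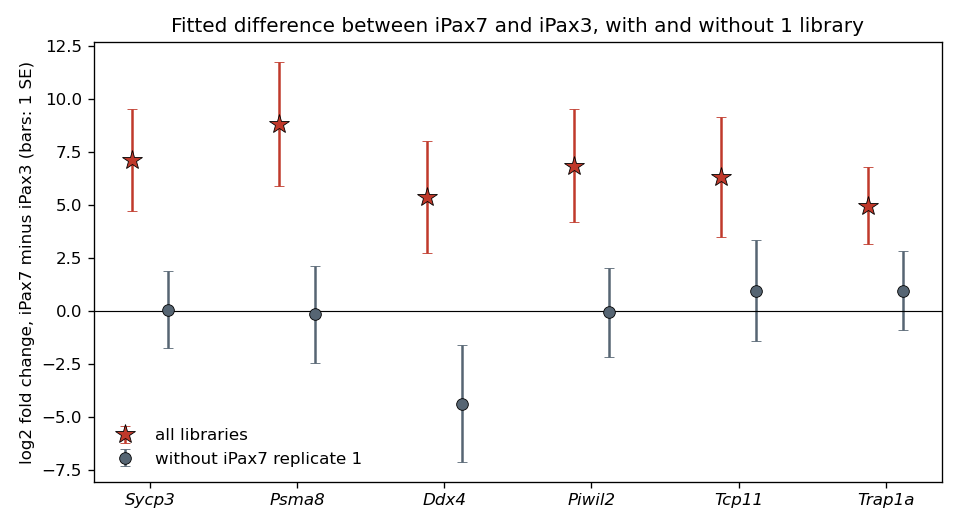
Fitted log2 fold change of iPax7 over iPax3 for the 6 germline genes that passed the low-count filter, with 1 SE, from all libraries (stars) and without iPax7 replicate 1 (dots). The SE was derived from the F value of the test. The stars lie between 4.97 and 8.83. The dots of 5 genes lie between -0.16 and 0.96 and that of Ddx4 at -4.38.

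Between PSC-derived and tissue-derived groups the other germ cell genes were counted in the same fit. Of the 47 tested 9 were higher in PSC-derived libraries, where 16.4% of all genes were, and 2 were lower, where 11.7% of all were. The share of higher calls is thus near that of all genes. The 9 were the cohesin Smc1b (log2 fold change 6.92 ± 1.43, SE, adjusted p = 0.00329) and the synapsis protein Sycp1 (5.08 ± 1.18, adjusted p = 0.00443), the recombination gene Msh5, the piRNA factors Tdrd5, Rnf17 and Gpat2, and Rhox5, Mageb16 and Cpeb1. The 2 lower ones were the receptor Kit (-3.65 ± 1.12, adjusted p = 0.0247), which is also found outside the germ line, and the RNA helicase Ythdc2 (-0.75 ± 0.24, adjusted p = 0.0287).

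Some of these calls were lost without the library labelled iPax7 replicate 1. When it was left out Smc1b, Sycp1, Rhox5 and Mageb16 were still called higher, Tdrd7 and Gapdhs were added, and Kit, Ythdc2, Dmc1 and Prdm1 were called lower by edgeR, where 14.2% of all genes were called higher and 11.2% lower. Rnf17, for example, then had an adjusted p of 0.555. Smc1b was at 1.28 and 1.20 CPM in iPax7 replicates 2 and 3 and at 0.395 to 0.477 CPM in iPax3, against 0 in 7 of 9 tissue libraries, but 1.10 and 1.93 CPM in Fet replicates 2 and 3. Sycp1 was at 0.968 to 4.46 CPM in these 5 libraries and at 0 to 1.21 CPM in tissue, with Fet replicate 3 above the lowest of them. Rhox5, an X-linked homeobox gene of the reproductive tract, was at 7.67 and 48.4 CPM in iPax7 replicates 2 and 3 and at 2.42 to 9.14 CPM in iPax3, against 0 to 3.17 CPM in tissue, where Emb replicate 1 was above the lowest iPax3 library. Reads of these 3 genes and of Trap1a were thus present in all PSC-derived libraries, at levels that differed widely between them, and each also had reads in some tissue libraries. Mageb16, also still called higher, had a log2 fold change of 9.96 ± 2.15 (SE, edgeR adjusted p = 0.00666) without that library. Its levels by library are not given here, so it is not part of that statement.

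A list of 19 genes held repressors of germline genes together with genes that add or remove DNA methylation, among them the methylcytosine oxidases Tet1, Tet2 and Tet3, which do not silence promoters. Between 16 and 19 of them were at 1 CPM or more in each library; Dnmt3l, Pcgf6 and L3mbtl2 were at 0 counts in some tissue libraries. Of the 19, 18 were tested: 6 were higher in PSC-derived libraries and 4 lower by edgeR's test, against 16.4% and 11.7% of all genes, and Tet2 and Tet3 made 2 of the 4 lower calls. Those with the smallest adjusted p were the de novo methyltransferase Dnmt3a (-1.03 ± 0.18, adjusted p = 0.000536), the methylcytosine oxidase Tet3 (-1.70 ± 0.31, adjusted p = 0.00072), the histone methyltransferase Ehmt1 (-0.89 ± 0.17, adjusted p = 0.00125) and the corepressor Trim28 (1.10 ± 0.23, adjusted p = 0.00249). Without the library labelled iPax7 replicate 1 the counts were 4 higher and 6 lower, where 14.2% and 11.2% of all genes were called. E2f6 stood at 33.3 CPM in the library labelled iPax7 replicate 1 and at 69.3 to 85.1 CPM in the other 5 PSC-derived libraries, whereas Mga stood at 342 CPM against 146 to 232 CPM. Dnmt3l, a cofactor of methylation in germ cells, was at 209 CPM there and at 1.76 CPM or less in every other library, and Tet1 at 529 CPM against at most 159 CPM. These last 4 genes were chosen after their values were seen.

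Single cells gave a view of iPax3 cell by cell. In 2931 iPax3 cells, 6 of the 8 genes (Sycp3, Psma8, Ddx4, Dazl, Piwil2 and Mael) had no UMI at all. A count of 0 allows a share of up to 0.102% of cells with a UMI by the floor of 3 counts, and up to 0.126% by the exact 95% interval used for the other shares. Trap1a was seen in 4 cells (0.136%, exact 95% interval 0.0372% to 0.349%) and Tcp11 in 2 cells (0.0682%, 0.00826% to 0.246%). Together 6 cells (0.205%, 0.0752% to 0.445%) held a UMI of any of the 8, and none held 2 of the genes. Of 579 adult satellite cells 1 held such a UMI, of Sycp3 (0.173%, 0.00437% to 0.958%). The iPax3 share lay within the wide interval of the adult cells, at median depths of 11716 and 10765 UMIs. The genes differed, since Trap1a and Tcp11 had no UMI in adult cells, and background and expression cannot be told apart at these counts. There was 1 library for each kind of cell, so no test was made, and the intervals cover counting error only.

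A second iPax3 matrix added depth but no replicate. Under 1 of its barcode sets it held 99.9% of the entries of the first, from the same cells, with 3.48 times the UMIs, while its other set repeated 77.9% of the adult entries. The gain was not even between genes, at 3.11 times for Pax3 and 6.97 times for Myog, and the cause was not tested. In the same 2931 cells, at a median of 42580 UMIs, Trap1a was found in 20 cells (0.682%, 0.417% to 1.05%), Tcp11 in 7, Dazl in 3, Sycp3 in 1 and Piwil2 in 1. Psma8, Ddx4 and Mael had no UMI there either. Adult cells were not compared at that depth, so these shares have no background beside them. In all 31 cells (1.06%) held a UMI of any of the 8 and 1 cell held 2 of the genes. Thinned to 2000 UMIs per cell, 2 cells of the first matrix held one (0.0682%), and no cell of the second or of the adult cells did. Of the 14 pluripotent markers, Sox2, Tdgf1, Tcl1, Fgf4 and Lin28a were at 0 in both matrices, and Pou5f1 was seen in 11 and 47 cells. A UMI of any of the 14 was in 1 of the 6 cells with a germline UMI and in 110 of the 2925 others. In the second matrix it was in 5 of 31 and 343 of 2900. Among adult cells without a germline UMI, 224 of 578 held one. The 14 markers include Klf2, which endothelial cells also express, and what each marker gave to these shares is not shown here. The shares are therefore not a measure of pluripotent cells.

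**Figure D5:**
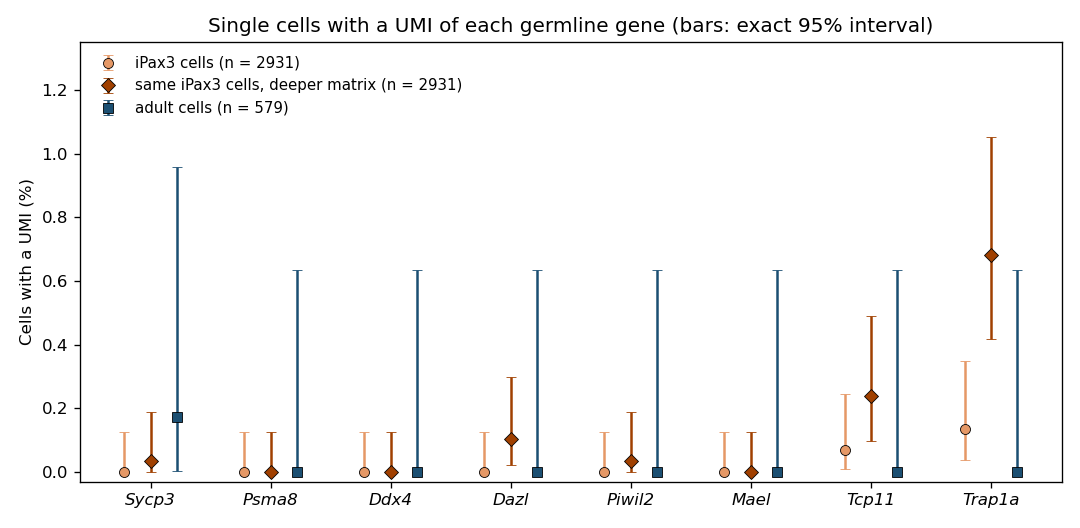
Percent of cells with a UMI of each germline gene, with exact 95% intervals, in iPax3 cells, in the same cells read from the deeper matrix, and in adult cells. The highest point is Trap1a in the deeper matrix, at 0.682%; 6 of the 8 genes are at 0 in the first iPax3 matrix.

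Mean levels by iPax3 cluster had also been deposited. Of the 8 genes, the authors' deposited table lists Trap1a and Tcp11 only, among 16711 genes and 7 clusters. The highest mean UMI value in the authors' deposited table was 0.00344 for Trap1a, in cluster 7, and 0.00228 for Tcp11, in cluster 2.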

How the data were processed

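Bulk values were raw read counts per gene as deposited by the authors. The submitters' processing notes name CASAVA 1.8, HISAT2 2.0.2, Subread featureCounts 1.4.6 and mm10; strand setting and handling of multi-mapping reads are not given in the sources used here. The single-cell matrices hold deposited UMI counts (Cell Ranger 2.2.0, per those notes). The authors' deposited cluster table gives a signal, each cluster's mean UMIs; its other columns were not used.

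The 8 genes and all lists were chosen with earlier results of these data known. Of 47728 gene identifiers, 28692 had a symbol in the single-cell gene table; positions are from GENCODE M21. All 15 libraries entered 1 model (edgeR 4.0.16 under R 4.3.3, with limma 3.58.1): group means, TMM scaling, filterByExpr (17571 genes kept) and robust quasi-likelihood tests with Benjamini-Hochberg adjustment, tested beforehand on simulated counts. Alternatives were DESeq2 1.42.0, RLE scaling, no filter, a replicate block, and leaving out each library or Neo. All 8 genes are named, with up to 4 called genes of each other list by smallest adjusted p, and for likeness the 3 genes of highest Pearson r of log2 CPM (prior count 2). Cells were kept from 500 UMIs upward if their UMIs reached 10% of the 99th percentile (over the top 3000 barcodes) and mitochondrial UMIs stayed under 10%. Adult and iPax3 cells shared 1 barcode; doublets were not removed. Intervals are exact Clopper-Pearson (95%). Summaries used Python 3.11.15 with pandas 2.3.3, numpy 2.4.6 and scipy 1.17.1; figures used matplotlib 3.10.9. Re-isolated injected cells were not analysed here.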

Additional observations from a re-analysis of the deposited data

How the results depend on the processing

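In iPax7 over iPax3 no alternative but DESeq2 called a germline gene. DESeq2 called 1, Psma8, and 1 other germ cell gene, Tdrd1, while edgeR called 0 of both. DESeq2 gave no p-value for Sycp3 and Tcp11. Leaving out 1 library at a time gave 0 calls each time; the log2 fold change ran between -0.078 and 7.56 for Piwil2, -0.16 and 9.63 for Psma8, and -4.38 and 9.58 for Ddx4. The 3 negative values came without iPax7 replicate 1, which carries their reads. Between PSC-derived and tissue-derived groups, 9 other germ cell genes were called higher and 2 lower. Without the count filter, which tests more genes, these were 18 and 0; without Neo, 7 and 4. Leaving out 1 library at a time gave 4 (without iPax3 replicate 2) to 15 (without Emb replicate 1) higher, with 5 without Fet replicate 1 or 2, and 0 (without iPax3 replicate 1 or 3) to 4 (without iPax7 replicate 1) lower; the cause was not tested. The labels do not say whether equal replicate numbers pair the samples. Same-numbered residuals correlated at -0.331 to 0.0767. With 3 libraries per group, and iPax7 replicate 1 far from its group, these values cannot decide it. With a replicate block the calls were 6 higher and 1 lower, and 0 germline genes in iPax7 over iPax3. Thinned to 2000 UMIs, 0.0682% of iPax3 cells, 0% of the same cells in the second matrix and 0% of adult cells held a germline UMI. Depth limits the tissue side most: in Fet replicate 1 a gene below 5.19 CPM can go unseen.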
